A study of Homo sapiens with 21 samples.

Results

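The comparison described here set the mutant RUNX1 protein of Y287X clones against the wild-type RUNX1 protein of the same clones. Jurkat, an established human T-cell acute lymphoblastic leukaemia line, was the cell background throughout, and the cells were untreated. In Y287X cells the HA tag marks RUNX1 with a stop codon (Y287X), and the TY1 tag marks wild-type RUNX1. Binding was measured by chromatin immunoprecipitation with anti-HA or anti-TY1 antibody and sequencing. The 4 peak lists of genotype Y287X, 2 HA and 2 TY1, were taken by their genotype label from 14 lists of a series of 21 samples. The other lists, used only for comparison, were 2 HA and 2 TY1 lists each of R232fs (a frameshift) and G365R (a missense change), with the same meaning of the tags, and 1 HA and 1 TY1 list of parental (WT) cells, in which both tags mark wild-type RUNX1. The 7 control samples were not analysed here. Each mutant line is a knock-in single clone, and both lists of a Y287X clone come from the same cells, so there are 2 clones and not 4 independent cultures. Mutant protein and HA antibody go together in these clones, and in the comparison of tags they cannot be told apart.

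RUNX1 is a transcription factor of blood cell development that binds DNA through its Runt domain, together with the partner protein CBFB. The Runt domain lies in the part of the protein before the Y287X stop. The stop removes the C-terminal part, which holds the transactivation region and the motif that recruits TLE corepressors. In T cells RUNX1 acts in thymocyte development, and in T-cell leukaemia lines such as Jurkat it is known to sit at enhancers together with TAL1 and GATA3. The design asks where a truncated RUNX1 that keeps its DNA-binding domain is found on chromatin that wild-type RUNX1 occupies too.

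A deposited list gives, for each peak, its hg19 position, its summit (the base of highest signal), a fold enrichment and a −log10 p-value, all as the authors' peak caller wrote them. Between 1.73% and 1.98% of a Y287X list lay outside chromosomes 1 to 22 and X and was left out. A list does not state the depth of its library. The commonest local background, a stand-in for depth solved from fold and p, was 3.58 and 3.70 fragments per base in the HA lists of clones 1 and 2, and 3.43 and 3.72 in their TY1 lists. The Y287X and R232fs lists stood apart from the G365R and WT lists in their strongest values. The highest fold was 174 to 369 in the first set and 61.0 to 89.3 in the second, so a comparison of Y287X with G365R or WT is also one between these sets of lists. The solved pileups were whole numbers, within 0.05, in at least 99.99% of tested peaks of each Y287X list. This held for only 8.07% in the first G365R TY1 list and 6.81% in the WT TY1 list. The signal of those 2 lists may thus have been scaled, which their labels do not state. What this does to the comparisons with them was not tested.

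With all deposited peaks, neither truncated nor wild-type RUNX1 had the longer list in both clones. Peaks of high enrichment were more numerous in the TY1 list of each clone, as they also were in the WT clone. The HA lists held 51892 peaks in clone 1 and 67594 in clone 2, and the TY1 lists 49749 and 81561. The HA list was the longer one in clone 1, by a ratio of 1.04, and the shorter one in clone 2, by a ratio of 0.829. HA peaks covered 27.48 and 38.03 Mb, and TY1 peaks 27.46 and 46.61 Mb. In both measures clone 2 lay above clone 1 for either tag. At a −log10 q of 5 or more the HA list was the shorter one in both clones, with 36125 and 48377 HA peaks against 39071 and 54897 TY1 peaks (mean log2 ratio -0.148 ± 0.049, SD between 2 clones, exact permutation p = 0.667).

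Peaks of fold 5 or more numbered 13379 and 18163 in the HA lists of clones 1 and 2, and 15773 and 24481 in the TY1 lists. These were 25.8% and 26.9% of the HA peaks, and 31.7% and 30.0% of the TY1 peaks. The HA list had fewer in both clones, with HA-to-TY1 ratios of 0.848 and 0.742, although the groups of lists overlapped because clone 2 exceeded clone 1. At fold 10 or more the counts were 3318 and 4946 for HA, and 4779 and 7994 for TY1, with ratios of 0.694 and 0.619. Neither the number of peaks (exact permutation of the tag over 4 lists, 2-sided, p = 1) nor that of fold 5 or more (exact permutation p = 0.667) passed a threshold, and 2 lists against 2 allow no p below 0.3333. With clones paired, an exact sign permutation gave p = 0.5 for peaks of fold 5 or more, the smallest that 2 clones allow.

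**Figure D1:**
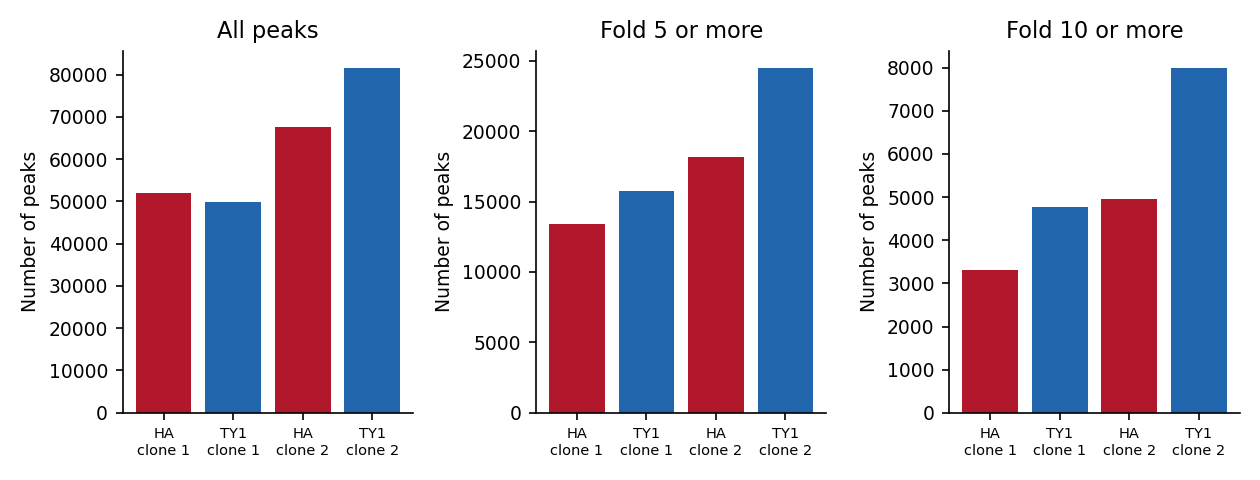
Bars show the number of peaks on chromosomes 1 to 22 and X in each Y287X list, for all peaks, for fold 5 or more and for fold 10 or more, with HA left of TY1 in each clone. HA has more peaks than TY1 only among all peaks of clone 1 (51892 against 49749), and fewer at fold 10 or more in both clones (3318 against 4779 and 4946 against 7994).

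The strong sites of truncated RUNX1 were nearly all within peaks of wild-type RUNX1 from the same clone, and the reverse held too. Among the strongest 10% of HA peaks by −log10 p, 1 summit of 5190 in clone 1 and 1 of 6760 in clone 2 lay outside every TY1 peak of that clone. Among the strongest 10% of TY1 peaks, 0 of 4975 and 0 of 8156 lay outside every HA peak. By the stricter measure of a summit of the other tag within 100 bp, 96.9% and 97.1% of the strongest HA peaks and 97.5% and 96.5% of the strongest TY1 peaks were matched. The same measure between clones, tag held constant, gave 91.9% and 96.2% for HA and 95.6% and 96.6% for TY1.

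Matching fell with strength in all 4 lists. In the weakest 10%, 16.3% and 22.6% of HA peaks had a TY1 summit within 100 bp, and 18.9% and 12.5% of TY1 peaks had an HA summit there. Over whole lists, 62.0% and 67.5% of HA peaks and 64.6% and 56.0% of TY1 peaks were matched. The longest list, TY1 of clone 2, had the lowest share.

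**Figure D2:**
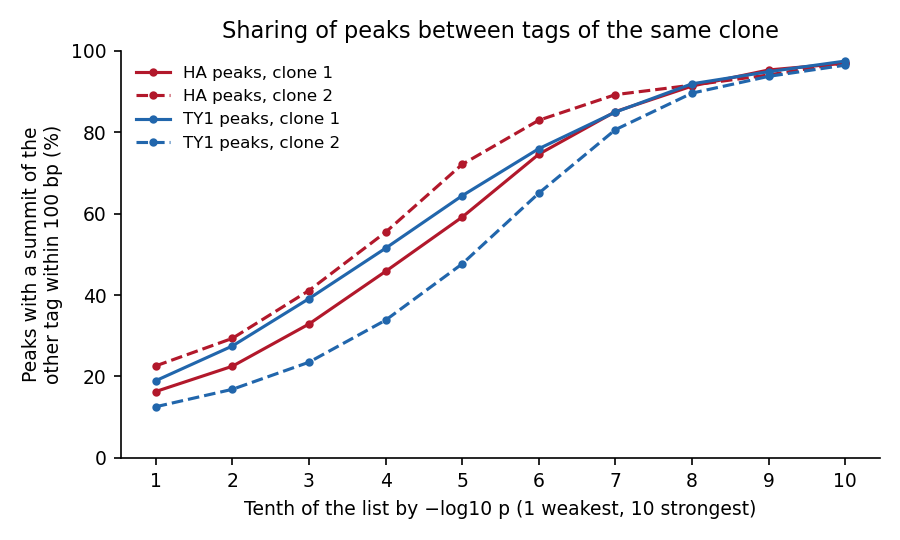
Each line follows 1 Y287X list from its weakest to its strongest 10% by −log10 p, and the vertical axis is the percentage of peaks with a summit of the other tag of the same clone within 100 bp. The 4 lines lie between 12.5% and 22.6% among the weakest 10% and between 96.5% and 97.5% among the strongest.

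A few strong peaks without a partner can be named, chosen after their values were seen. The strongest HA peak of clone 2 outside every TY1 peak of that clone was at chr21:9825661-9826164, with a −log10 p of 153 but a fold of only 1.54. The strongest in clone 1 was at chr21:48119548-48119870, with a fold of 3.87, and its nearest TY1 summit was 1426 bp away. Both lay in HA peaks of the other clone too. A TY1 peak of clone 2 also covered the summit at chr21:48119548-48119870, and no TY1 peak of clone 1 covered that at chr21:9825661-9826164. Of the lists of other genotypes, 8 covered the former and 3 the latter. Regions known to attract misplaced reads were not filtered out, and whether such peaks are of that kind was not tested. The strongest TY1 peak of clone 2 without an HA peak had a higher fold, 20.4, at chr3:155272804-155273325, with the nearest HA summit of that clone 19866 bp away. An HA peak of clone 1 did cover it. In clone 1 the strongest TY1 peak without an HA peak had a fold of 6.76, at chr19:35801285-35801786. Another HA peak of clone 2 without a TY1 peak had a fold of 8.13, at chrX:153760827-153761313. No list of the other clone or of another genotype covered its summit.

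Among regions shared by all 4 lists, those with the highest mean percentile of fold over the 4 lists were picked. This choice itself places them near the top for both proteins. The region chr2:11093894-11094212 ranked first by fold in all 4 lists, with 213- and 253-fold enrichment for HA and 209- and 369-fold for TY1. At chr10:1295988-1296256 the HA folds were 177 and 153, and the TY1 folds 187 and 151, so HA and TY1 overlapped. At chr9:129748177-129748422 they did not overlap, with HA folds of 84.8 and 104 and TY1 folds of 185 and 192. At chr6:147092172-147092412 HA had 76.9 and 158, and TY1 145 and 233. All 4 of these regions ranked within the strongest 20 of each Y287X list.

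To count shared and unshared sites, a window of 100 bp on each side of every summit was merged over the 14 lists into regions. The 4 Y287X lists together occupied 114496 regions, and 29746 of them (26.0%) were in all 4. Both HA lists and neither TY1 list held 1295 regions (1.13%), here called HA-only. Both TY1 lists and neither HA list held 2288 (2.00%), here called TY1-only. By contrast, 3020 regions (2.64%) were in both lists of clone 1 and none of clone 2, and 12502 (10.9%) in both of clone 2 and none of clone 1. Thus 3583 regions separated the lists by tag and 15522 by clone. Pairs of lists that share neither tag nor clone held 2829 regions alone, of which 2055 were in HA of clone 1 and TY1 of clone 2 and 774 in HA of clone 2 and TY1 of clone 1. The HA-only count lay between these counts, and the TY1-only count above both.

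The clones differ in list length, and lists were therefore also cut to their 49749 strongest peaks by −log10 p. Then 1398 regions were HA-only, 1683 TY1-only, 4596 in clone 1 alone and 5837 in clone 2 alone. The 3081 regions separated by tag were again fewer than the 10433 separated by clone. The pairs sharing neither then held 961 (HA of clone 1 and TY1 of clone 2) and 949 regions (HA of clone 2 and TY1 of clone 1), fewer than either single-tag count.

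**Figure D3:**
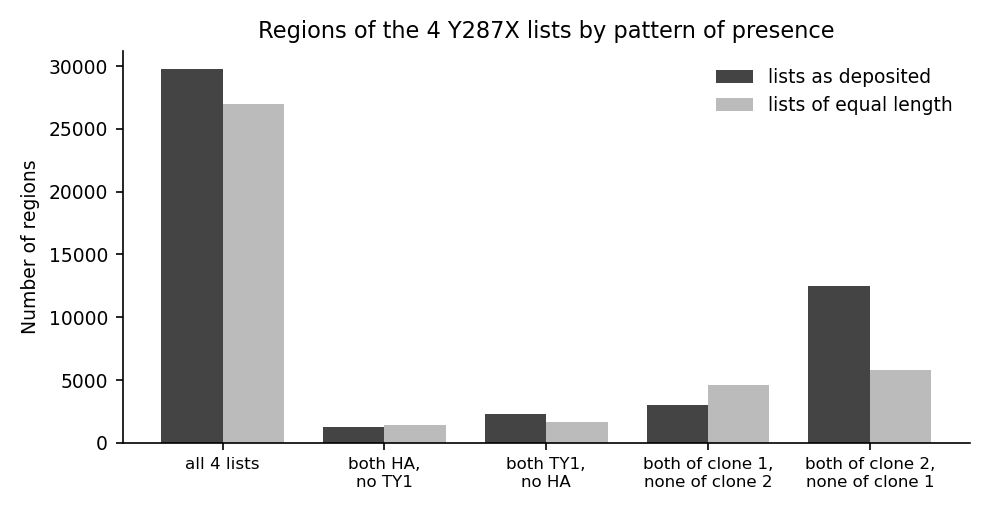
Bars count regions by the Y287X lists that hold them, with dark bars for lists as deposited and light bars for lists of equal length. Regions in all 4 lists are the most frequent of the patterns drawn (29746 as deposited), and those of a single tag the least (1295 and 2288).

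Whole lists were most alike within a clone, and sharing a tag set no clear order beyond that. The Jaccard index, shared regions over regions in either list, was 0.556 and 0.524 between HA and TY1 of the same clone. It was 0.431 between the HA lists of the 2 clones and 0.432 between their TY1 lists. Pairs sharing neither had 0.406 (HA of clone 1 and TY1 of clone 2) and 0.448 (HA of clone 2 and TY1 of clone 1). At equal length it was 0.546 and 0.647 within clones, 0.477 between HA lists, 0.536 between TY1 lists, and 0.488 and 0.497 for the pairs sharing neither. HA and TY1 of clone 1 (0.546) were then barely closer to each other than the TY1 lists of the 2 clones.

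The fold at the 29746 shared regions ranked alike in both tags of a clone. Spearman's rho across regions was 0.903 in clone 1 and 0.912 in clone 2, against 0.851 between HA lists and 0.850 between TY1 lists. These are descriptions across regions, which are not independent replicates.

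Many regions found in only 1 Y287X clone were also in lists of other genotypes. Of the 3020 regions in both lists of Y287X clone 1 and none of clone 2, the lists of the first R232fs clone held 63.6% (HA) and 54.7% (TY1), and those of the second R232fs clone 21.0% and 17.5%. The WT lists held 53.6% (HA) and 66.1% (TY1). Of the 12502 regions of clone 2 alone, the first R232fs clone held 47.2% (HA) and 10.7% (TY1), the second 61.4% and 47.1%, and the WT clone 7.07% and 19.9%. Over all Y287X regions these shares were 50.5% (HA) and 31.3% (TY1) in the first R232fs clone, 51.0% and 43.8% in the second, and 24.2% and 39.0% in the WT clone. Chromosome 19 held 1.32% of the regions of clone 1 alone, 4.51% of those of clone 2 alone and 4.78% of those in all 4 lists. Why the clones differed was not tested.

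Where both tags had summits within 100 bp of each other, the distance between tags was no larger than that between clones. Displaced summits do not enter this measure. In clones 1 and 2, 71.0% and 78.1% of HA summits lay in a TY1 peak, but 62.0% and 67.5% within 100 bp of a TY1 summit. Among pairs of summits within 100 bp, the median distance between HA and TY1 was 21 bp in each clone. Between clones it was 24 bp for HA against HA and 23 bp for TY1 against TY1. In the strongest 10% of peaks the median HA-to-TY1 distance was 12 bp in both clones, seen from HA.

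A small set of peaks had summits that separated by tag. Whole peaks of the 4 lists were merged, and 29478 merged peaks held exactly 1 peak of each list. All 4 summits lay within 50 bp in 13090 of them (44.4%). In 188 (0.638%) the HA summits of the 2 clones lay within 50 bp of each other, the TY1 summits likewise, and every HA summit was more than 100 bp from every TY1 summit. The corresponding separation by clone was found in 485 (1.65%). In the 188 the median distance between the tags was 215 bp and the longest 935 bp, and the HA summit lay at the lower coordinate in 92 of them.

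The strongest example was chr10:90030442-90031928. Its HA summits were at 90031364 and 90031384, and its TY1 summits at 90030790 and 90030800, 579 bp away. Fold at these summits was 13.8 and 15.5 for HA, and 15.1 and 27.6 for TY1. The HA position was also held by both R232fs HA lists and by no R232fs TY1 list, G365R list or WT list. The TY1 position was held by both R232fs TY1 lists, all 4 G365R lists and both WT lists, and by no R232fs HA list.

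2 further members of this set had the higher fold for HA in both clones (chromosome 12) or for TY1 in both (chromosome 2). At chr12:130538945-130540615 the HA summits, at 130539397 and 130539367, lay 701 bp from the TY1 summits at 130540101 and 130540065. Folds there were 13.1 and 17.7 for HA, and 10.6 and 14.4 for TY1. In this case both tags of every other genotype also had a summit at the HA position. At chr2:112251691-112253085 the distance was 579 bp, with HA folds of 7.58 and 12.1 and TY1 folds of 11.7 and 18.2. The TY1 position there was held by both R232fs TY1 lists and neither R232fs HA list.

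The strongest HA-only and TY1-only regions lay within peaks of both tags. The 5 of each with the highest median fold over their 2 lists all lay, in both clones, inside a peak that the other tag had there, with the nearest summit of the other tag 301 to 1513 bp from the region's midpoint. An HA-only region at chr3:59717675-59718041 had folds of 8.52 and 17.2, beside TY1 summits of fold 27.8 and 32.9 at 1513 and 1509 bp. A TY1-only region at chr5:75698284-75698544 had folds of 11.5 and 19.3, beside HA summits of fold 4.65 and 8.33 at 497 and 492 bp. At each of these 10 regions both proteins had a peak, with summits at different places.

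Over the whole sets, 343 of 1295 HA-only regions (26.5%) and 316 of 2288 TY1-only regions (13.8%) lay in a peak of the other tag. The median distance to the nearest summit of the other tag was 2168 bp for HA-only and 4124 bp for TY1-only regions. Median folds were 3.32 and 3.57 for HA-only regions and 3.39 and 3.47 for TY1-only regions, a little below the medians of their lists. The median of all peaks was 3.6001 and 3.621 in the HA lists, and 3.84 and 3.78 in the TY1 lists.

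At equal length, and with whole peaks merged as well, 1012 HA-only and 1316 TY1-only regions remained of a single tag. The strongest HA-only one was chr15:43496538-43496795, with HA folds of 6.73 and 8.27. The TY1 list of clone 2 had a summit there too in its full length, of fold 3.42. At chr18:27577892-27578160 the HA folds were 5.24 and 7.06, and the nearest TY1 summits were 636012 and 1355465 bp away. Both HA and both TY1 lists of R232fs held this region, and so did both G365R TY1 lists. At chr17:45650149-45650406 the HA folds were 5.07 and 7.02, and the nearest TY1 summits were 41797 and 41791 bp away. Of the lists of other genotypes, only 1 R232fs TY1 list held this region, and no R232fs HA list did.

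The strongest TY1-only region by this count was chr20:8053955-8054289, with TY1 folds of 12.4 and 7.63, where the HA list of clone 2 in its full length had a summit of fold 3.62. At chr9:129137727-129137984 the TY1 folds were 6.01 and 10.9, and the nearest HA summits were 14581 and 9348 bp away. At chr5:16522893-16523182 the TY1 folds were 8.80 and 7.42, with the nearest HA summits, of fold 2.52 and 2.80, at 1115 and 1171 bp. Both R232fs HA lists held the region on chromosome 9, and 1 of them that on chromosome 5.

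At the same sites the HA peak was more often the narrower one. At the 29746 shared regions the median width in clone 1 was 538 bp for HA and 570 bp for TY1, with the TY1 peak wider at 59.5% of regions. In clone 2 it was 648 bp for HA and 738 bp for TY1, with the TY1 peak wider at 77.3%. Over whole lists the medians were 443 and 457 bp for HA, and 466 and 454 bp for TY1. They overlapped between tags (exact permutation p = 0.667). At equal length the medians were 452 and 537 bp for HA, and 466 and 620 bp for TY1, with HA narrower in both clones by a mean difference of -48.5 bp (exact permutation p = 0.667). Of TY1 peaks, 0.704% and 1.05% spanned 2 or more HA summits, and of HA peaks 0.488% and 0.496% spanned 2 or more TY1 summits. In the other genotypes the median width over whole lists was also lower for HA. It was 390 bp for HA and 422 bp for TY1 in the WT clone, with no mutant protein present. In G365R it was 390 and 385 bp for HA, and 428 and 405 bp for TY1. R232fs had 422 and 418 bp for HA, and 485 and 476 bp for TY1.

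The other truncated protein, R232fs, was found at more of the Y287X HA-only regions than any other protein or tag of the other genotypes, a description with no test. For this all 14 lists were cut to 30563 peaks, the length of the shortest, which left 823 HA-only and 887 TY1-only Y287X regions. The R232fs HA lists held 57.7% and 52.1% of the HA-only regions, and the R232fs TY1 lists 29.0% and 28.3%. The G365R HA lists held 27.2% and 27.8%, and the G365R TY1 lists 24.5% and 24.1%. In the WT clone HA held 26.6% and TY1 24.8%. The 2 R232fs HA values lay above those of the other 8 lists, whereas over all Y287X regions R232fs HA (mean 61.0%) and R232fs TY1 (60.3%) overlapped.

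The TY1-only regions were held more by TY1 lists than by the HA list of the same clone in each of the 5 clones of other genotypes. The R232fs HA lists held 21.8% and 41.8% of them, and the R232fs TY1 lists 39.1% and 64.4%. In G365R the HA lists held 26.9% and 23.7%, and the TY1 lists 43.7% and 28.4%. In the WT clone HA held 22.5% and TY1 32.7%, with no mutant protein present. Over all Y287X regions the means were 47.3% (HA) and 55.6% (TY1) in G365R, and 46.2% (HA) and 55.5% (TY1) in WT. The part of the tag itself in the TY1-only regions was not tested.

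With lists as deposited the R232fs HA lists again held more of the HA-only regions than the R232fs TY1 lists, but this held over all Y287X regions too. The R232fs HA lists held 49.8% and 50.3% of the HA-only regions, and the TY1 lists 14.2% and 28.2%. Of all Y287X regions they held 50.5% and 51.0% (HA), and 31.3% and 43.8% (TY1). Regions of the 2 pairs of Y287X lists sharing neither tag nor clone had means of 46.1% and 46.3% in R232fs HA, and 23.2% and 25.1% in R232fs TY1. The TY1-only regions were held at 41.9% and 42.7% by the R232fs HA lists and at 23.6% and 43.3% by the R232fs TY1 lists. The R232fs HA lists were the longer ones (77691 and 86433 peaks, against 40112 and 59140 for TY1).

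**Figure D4:**
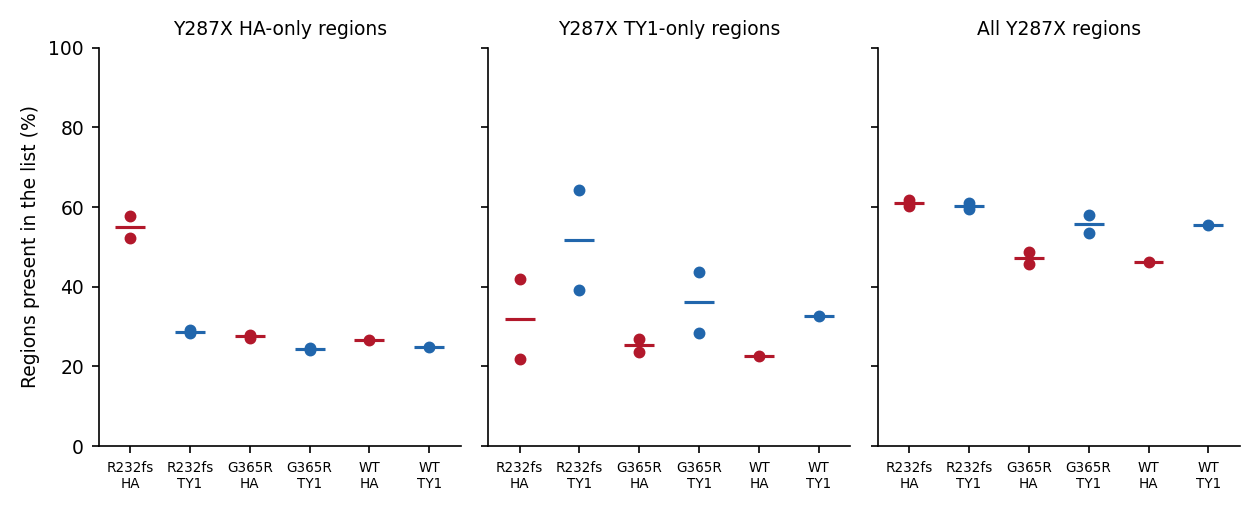
Points are lists of the other genotypes, bars their means, and the vertical axis is the percentage of Y287X HA-only, TY1-only or all Y287X regions present in a list, with all 14 lists cut to 30563 peaks. The R232fs HA points, 57.7% and 52.1%, stand above all others for HA-only regions, whereas over all Y287X regions the R232fs HA and TY1 points overlap.

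Some Y287X regions were in no list of another genotype. This held for 251 HA-only regions (19.4%), 326 TY1-only regions (14.2%) and 27.8% of all Y287X regions. It held for only 71 of the 29746 regions in all 4 Y287X lists (0.239%). The strongest of the 71 was chr11:47714399-47714676, with HA folds of 5.90 and 8.88 and TY1 folds of 5.64 and 10.4. Next came chr10:70738689-70738946, with 5.68 and 4.89 for HA and 6.54 and 9.54 for TY1. At both, HA and TY1 values overlapped.

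Relative binding strength was compared at the 11291 regions present in all 14 lists, with the fold of each list converted to normal scores by its rank (1 unit is 1 SD of a list). Without a clone term, limma called 0 of 11291 regions (0% higher and 0% lower for HA) at an adjusted p under 0.05. At an unadjusted p under 0.05 there were 224 higher and 239 lower regions. With clone as a term limma called 31 regions higher for HA (0.275%) and 62 lower (0.549%), with a lowest adjusted p of 0.0268. Within a clone, deviations of the HA and the TY1 list from their group means correlated with r = 0.702 across regions, and the clones are the labelled pairs. The calls with the clone term fell to 0 higher and 0 lower without either Y287X clone, and also without limma's trend of spread on mean score.

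Before any test, both HA scores lay above both TY1 scores at 1914 regions (17.0%) and below them at 2007 (17.8%). Of the regions called with the clone term, 28 of 31 and 53 of 62 did not overlap. The HA minus TY1 difference had the same sign in both clones at 7632 regions (67.6%) and correlated between clones with r = 0.463, a description over regions.

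Regions where truncated RUNX1 ranked higher ran from weak to strong sites, with HA percentiles of 7.79 to 99.94 in clone 1 and 4.70 to 99.95 in clone 2. The median percentile of fold within a list was 69.0 and 56.9 for HA, and 23.4 and 16.3 for TY1, over the 31 regions. Ranks of fold chose these regions, so HA above TY1 follows from the choice. The largest difference was at chr3:109251439-109251988, with HA folds of 6.31 and 5.32 and TY1 folds of 3.294 and 3.605, which do not overlap. Its score difference was 1.57 ± 0.18 (SE), with an adjusted p of 0.0268 by limma with the clone term. At chr17:32490793-32491068 the HA folds were 12.9 and 8.72, and the TY1 folds 6.77 and 5.30 (difference 1.24 ± 0.14). At chr3:197767439-197767906 they were 8.96 and 14.7 for HA, and 5.87 and 6.57 for TY1 (1.24 ± 0.18).

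The 62 regions where truncated RUNX1 ranked lower included strong wild-type sites. The median percentile was 72.0 and 48.8 for HA, and 95.1 and 84.4 for TY1, an order that again follows from the choice. At chr15:76357708-76358011 the HA folds were 6.96 and 6.85, and the TY1 folds 32.7 and 26.9, with a score difference of -1.38 ± 0.21 (limma with the clone term, adjusted p = 0.0364). At chr20:21156164-21156552 HA had 12.4 and 6.42, and TY1 43.6 and 31.0 (-1.28 ± 0.21). At chr22:45201605-45201997 HA had 4.14 and 3.36, and TY1 14.1 and 11.3 (-1.56 ± 0.20). At all 3 the groups did not overlap.

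Each of the 20 regions named by size of difference, 10 in either direction, passed with the clone term only, and none of these adjusted p-values without it was below 0.9997. In the R232fs clones the difference at chr22:45201605-45201997 was -1.89 and -1.08. In the G365R clones it was -0.08 and -0.16, and in the WT clone -0.10. At chr15:76357708-76358011 the R232fs differences were -1.22 and -2.14, the G365R differences -0.44 and -0.35, and the WT difference -0.43.

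**Figure D5:**
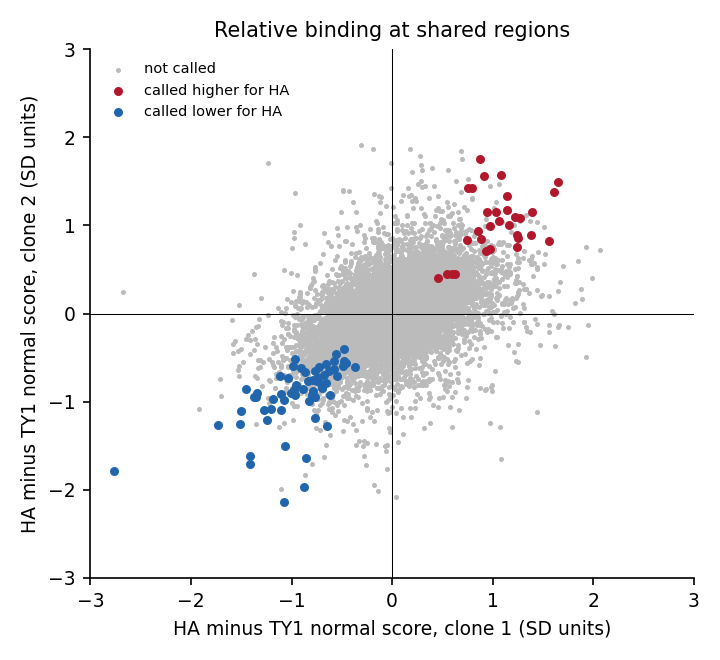
Each point is 1 of 11291 regions, placed by its HA minus TY1 difference in normal score in clone 1 (horizontal) and clone 2 (vertical). The 31 red points (higher for HA) and 62 blue points (lower for HA) were called with the clone term and differ in the same direction in both clones, and the remaining cloud leans along the same diagonal (r = 0.463).

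As a set the called regions had medians of the same direction in R232fs. In G365R and WT the medians were small and of the opposite sign, with regions of both signs present. The difference between genotypes was not tested. At the 31 higher regions the median HA minus TY1 score was 1.031 and 1.003 in the Y287X clones. It was 0.51 and 0.65 in the R232fs clones, positive at 31 and 30 of 31. The Y287X difference chose the called regions, but its spread was also estimated from how well the R232fs and G365R clones agreed. The R232fs clones were thus not independent of the choice. In the G365R clones the median at the 31 regions was -0.21 and -0.10, negative at 21 and 22 of them. In the WT clone it was -0.15, negative at 23. At the 62 lower regions the medians were -0.87 and -0.86 in Y287X and -0.84 and -0.82 in R232fs, negative at 61 of 62 in each R232fs clone. The medians were 0.14 and 0.09 in G365R, positive at 39 of 62 in each clone, and 0.09 in WT, positive at 35. Over all 11291 regions the median of every clone lay between -0.0043 and 0.0172. There the R232fs differences were positive at 5812 and 5604 regions and negative at 5475 and 5681.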

How the data were processed

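RUNX1 binding was measured by ChIP-seq in Jurkat clones fixed for 15 min, with the fixation stopped for 5 min, per the labels' protocols. The submitters' processing notes name the genome build hg19, MACS2 2.2.7.1, Bowtie2 2.2.9 and CASAVA 1.8. The choice of controls and settings for peak calling is not given in the sources used here. The authors deposited 1 peak list per library, not pooled. Each deposited peak had a score, a −log10 p-value, a −log10 q-value, a fold enrichment on a linear scale and a summit distance. The lowest −log10 q of the Y287X lists was 1.30, close to a q of 0.05. These values ranked, filtered and described peaks within a list. Between lists, counts past a fixed fold and ranks of fold were compared. Depth is not in a list, so no counting interval can be given.

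The members and the rules for named regions were chosen with earlier results of these data known. Only chromosomes 1 to 22 and X entered. Summits with 100 bp on each side, merged where they overlapped by 1 bp or more over 14 lists, gave 190855 regions, with the peak of highest −log10 p standing for a list. The names of the deposited lists carry clone numbers, by which HA and TY1 lists of one replicate number share a clone. Numbers and widths were tested by exact permutation. At 11291 regions in all 14 lists, fold was ranked, turned into normal scores and fitted with limma 3.58.1 (trend, Benjamini-Hochberg, threshold 0.05) in R 4.3.3, with 8 groups of genotype and tag. The 2 WT lists, 1 per tag, were assumed to vary like the others. Pileup and background were solved from fold and −log10 p. At least 99.99% of tested pileups of each Y287X list were whole within 0.05, against 8.07% in the first G365R TY1 list and 6.81% in the WT TY1 list. Scripts were tested on simulated data. Alternatives were equal list length, stricter thresholds, other windows, whole peaks, other ranks, the clone term and leaving out a replicate. Python 3.11.15, numpy 2.4.6, pandas 2.3.3, scipy 1.17.1 and matplotlib 3.10.9 were used.

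Named regions were the 10 of largest difference in each direction among those called with the clone term, the 5 strongest HA-only and TY1-only regions as deposited and at equal length, and the 5 strongest in all 4 lists with and without a list of another genotype. The text gives a part of them. The examples of displaced summits and of strong unmatched peaks were chosen after their values were seen. No hg19 sequence or annotation was used here, so regions carry no gene names, motifs or sequences, and the planned annotation and protein description were left out.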

Additional observations from a re-analysis of the deposited data

Results flagged for a closer look

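At the Y287X HA-only regions, HA minus TY1 presence had opposite signs in R232fs and G365R with lists as deposited. R232fs HA lists held 49.8% and 50.3% of these regions and R232fs TY1 lists 14.2% and 28.2%, whereas G365R HA lists held 11.6% and 12.4% and G365R TY1 lists 25.3% and 26.8%. The mean differences were 42.9 percentage points apart. That gap was not tested, and it moves with list length: the HA list was the longer one in both R232fs clones and the shorter one in both G365R clones. At equal length the G365R differences were 2.67 and 3.77 points, of the same sign as in R232fs (28.7 and 23.8). With lists as deposited the signs were also opposite over all Y287X regions, so the opposite signs are not particular to the HA-only regions. Mean shares of all Y287X regions were 50.8% (HA) and 37.5% (TY1) in R232fs, and 21.8% (HA) and 39.4% (TY1) in G365R.

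At the 31 regions that ranked higher for HA in Y287X, the median HA minus TY1 score was positive in both Y287X clones and negative in both G365R clones, and the means lay 1.17 apart. At the 62 regions that ranked lower, the signs were again opposite and the means lay -0.98 apart. Both sets held regions of either sign in G365R, where 21 and 22 of the 31 were negative and 39 of the 62 positive in each clone. Neither difference was tested. The regions were chosen on the Y287X difference, with a spread to which the G365R clones also contributed. The Y287X and G365R lists also differ as sets, with highest folds of 209 to 369 in Y287X and 67.0 to 89.3 in G365R.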

How the results depend on the processing

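The log2 ratio of HA to TY1 peak numbers, -0.11 as a mean of 2 clones, ran from -0.27 to 0.0608 with 1 clone left out and so changed sign without clone 2. At a −log10 q of 5 or more it was -0.148 ± 0.049 (SD), with fewer HA peaks in both clones. The difference in median width, -10 bp, ran from -23 to 3 bp with 1 clone left out, changing sign without clone 1, and was -48.5 bp at equal length. The number of HA-only regions was 1295, and 645 with peaks of −log10 q of 5 or more. With a single clone left, 15580 to 16327 regions were of HA alone and 13444 to 30289 of TY1 alone. The median summit distance of 21 bp became 24.5 bp within 250 bp and 20 bp at equal length. The R232fs HA share of HA-only regions, 50.04%, was 54.9% at equal length and 50.5% with whole peaks merged. The R232fs HA share of TY1-only regions, 42.3%, was 31.8% and 45.9%, and the R232fs TY1 share, 33.5%, was 51.7% at equal length.

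For relative binding, limma without a clone term called 0 higher and 0 lower regions, and 2 and 2 on ranks of pileup. With the replicate block (clone term, same clone paired) it called 31 and 62, with ranks of −log10 p 308 and 396, with ranks of pileup 404 and 518, at regions in at least 10 lists 7 and 35, and within the 4 Y287X lists 0 and 4. The mean Jaccard index within clones minus that within tags, 0.108, ran from 0.0898 to 0.113. The exact permutation p of peaks of fold 5 or more was 0.667 unpaired and 0.5 paired. With all deposited peaks the difference in peak number between tags was smaller than its SD between clones (0.235), and with 2 clones and no depth in the lists no test here can pass a threshold for it.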
